A study of Mus musculus with 7 samples.

Results

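Serine tRNAs carry serine to the ribosome, and the 4 pools described here are Ser-AGA, Ser-CGA, Ser-TGA and Ser-GCT, named by the DNA letters of their anticodons. They were taken by name from 52 cytosolic anticodon pools, and all tRNAs whose name marks them as serine were taken from 217 isodecoders, which are tRNAs that share an anticodon and differ elsewhere in the body. This gave 14 serine isodecoders, 3 in Ser-AGA, 3 in Ser-CGA, 2 in Ser-TGA, 5 in Ser-GCT and 1 in the minor pool Ser-GGA. They were chosen by name, with earlier results of these data known. None was listed at 0 in any library, and 0 were lost to the filter of a mean of 1 RPM, where RPM are reads scaled to 1000000 tRNA reads. All 14 were therefore tested.

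The tRNAs were sequenced by QuantM-seq, which joins an adapter to the ends of deacylated tRNAs ahead of reverse transcription. All cells were of mouse strain 129S/SvEv, with no engineered allele named in the labels, and descended from oligodendrocyte progenitor cells (OPCs) made from epiblast stem cells in culture. The OPC group (n = 3) was grown with bFGF and PDGFA at 20 ng/mL each. Oligodendrocytes (OLs, n = 2) were differentiated from OPCs with noggin and IGF-1 at 100 ng/mL each, cyclic AMP at 10 uM, NT3 at 10 ng/mL and T3 thyroid hormone at 40 ng/mL. Astrocytes (n = 2) were differentiated from OPCs with bFGF at 20 ng/mL, Hb-EGF at 5 ng/mL, CNTF at 10 ng/mL and BMP4 at 10 ng/mL. The study states that OL cultures still held undifferentiated OPCs and that OLs were made from some of the OPC replicates, so the groups are neither pure nor fully independent. In such bulk samples a change in the makeup of the culture and a change within each cell cannot be told apart. The tables list tRNAs only, so cell identity could not be checked against marker genes.

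Serine is read from a box of UCN codons and from the separate AGU and AGC codons. Ser-CGA and Ser-TGA read UCG and UCA, Ser-AGA reads UCU, UCC and UCA once its first anticodon base has been converted to inosine, and Ser-GCT reads AGU and AGC. A single cytosolic synthetase charges all of them. It recognises the long variable arm that serine tRNAs share with leucine and selenocysteine tRNAs, and not the anticodon. The serine-accepting tRNA for selenocysteine is charged by the same enzyme before its serine is converted.

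The RefSeq gene table for GRCm38.p6, the assembly also called mm10, held 22 cytosolic serine tRNA genes among 403 tRNA genes. There were 8 with anticodon GCT, 7 with AGA, 3 with CGA, 3 with TGA and 1 with GGA. The deposited names listed 7 copies under Ser-GCT and 8 under Ser-AGA, and the same numbers as RefSeq under the others. Of the 22 genes, 21 spanned 82 bases, and the exception was the Ser-GGA gene, of 73 bases. The median was 72 bases in 356 tRNA genes for amino acids other than serine and leucine. Of those 356, 18 spanned 82 bases or more, and the leucine genes spanned 82 to 107 bases. Gene length alone therefore does not show the long arm. Chromosome 13 held 12 of the 22, all between positions 21492845 and 23521951, a stretch that also holds 23 protein-coding Hist1 histone genes in GENCODE. In GENCODE vM21, 17 of the 22 genes lay between annotated genes, 1 lay in an intron and 4 overlapped an exon. For n-TSaga9 and n-TStga1 that exon was the GENCODE record of the same name, typed as miRNA. For n-TStga2 it was Gm44456, also typed as miRNA, and for n-TSgct5 it was Gm48356.

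One sequence, a Ser-GCT gene, is shown because Ser-GCT-5, the isodecoder that passed the threshold, belongs to that pool. It was read from a GENCODE transcript that spans the RefSeq gene n-TSgct5, at chr13:22050686-22050767 on the minus strand, opposite an exon of Gm48356. Capitals mark the anticodon, positions 34 to 36 counted from the 5′ end of the gene.
n-TSgct5 (Ser-GCT): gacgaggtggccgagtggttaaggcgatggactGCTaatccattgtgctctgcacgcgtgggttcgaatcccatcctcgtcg

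The tables pair isodecoders with no RefSeq symbol, so it is not stated which Ser-GCT isodecoder this gene encodes. Reads of tRNAs with closely similar bodies could be split between them or removed by the authors' mapping quality minimum. Values of minor isodecoders and of the low pools Ser-AGA and Ser-GGA are uncertain to that extent, and its size was not tested.

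The read totals behind the RPM scale were between 1339021 and 2627351 a library, and the limit set by 3 reads was 1.14 to 2.24 RPM. Replicate libraries differed by more than counting error in every pair, the chi-square of their reads over its degrees of freedom being lowest between OPC replicates 1 and 2, at 26.7, and highest between the astrocyte libraries, at 172. Reads outside the listed cytosolic tRNAs took 4.98 to 6.94% in OPCs, 3.55 to 3.90% in OLs and 7.74 to 7.88% in astrocytes.

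Serine tRNAs together took 48607, 47127 and 51627 RPM in OPC replicates 1 to 3. In OLs they took 47420 and 51346 RPM, and in astrocytes 44230 and 40305 RPM. The OL libraries lay among the OPC libraries, and both astrocyte libraries lay below every other library. The group means were 49120 ± 2293 RPM in OPCs, 49383 ± 2777 RPM in OLs and 42267 ± 2775 RPM in astrocytes (SD). In percent of the cytosolic reads, serine tRNAs were 5.24 ± 0.186 in OPCs, 5.13 ± 0.302 in OLs and 4.58 ± 0.296 in astrocytes. The difference of astrocytes from OPCs was -6853 RPM, for which the exact permutation test, two-sided, gave p = 0.2 and 0.5 after adjustment over 3 pairs. The design allowed no smaller p than 0.2 against OPCs and 0.333 between OLs and astrocytes. The difference of OLs from OPCs, 263 RPM, had p = 1.0 in the same exact permutation test and turned negative with the other scalings. OLs exceeded astrocytes by 7116 RPM (exact permutation p = 0.333). Serine ranked 10 by mean RPM among the 23 groups formed by the part of the tRNA name ahead of the anticodon.

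Most serine tRNA reads came from Ser-TGA, Ser-CGA and Ser-GCT. Over all 7 libraries Ser-TGA took 43.8% of serine tRNA reads, Ser-CGA 28.2% and Ser-GCT 27.7%. Ser-AGA took 0.219% and Ser-GGA 0.135%. The genes of the main 4 pools have the same length, so their RPM need no correction for it. Differences between tRNAs in ligation, reverse transcription or mapping were not tested, and the levels of different pools are read levels to that extent. In every library Ser-TGA stood above Ser-CGA and Ser-GCT, and those far above Ser-AGA. Ser-CGA and Ser-GCT were neighbours whose order depended on the library: Ser-CGA was the higher in all OPC and astrocyte libraries, and Ser-GCT in both OL libraries. Their levels overlapped over the 7 libraries.

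Ser-TGA, the reader of UCA, had 21811, 22581 and 21591 RPM in OPCs. Its values were 21110 and 21487 RPM in OLs and 18700 and 17583 RPM in astrocytes. Both astrocyte libraries lay below all 5 others, and both OL libraries lay just below the lowest OPC library. The mean was 21994 ± 520 RPM in OPCs, 21299 ± 266 RPM in OLs and 18142 ± 790 RPM in astrocytes (SD). In astrocytes against OPCs the log2 change was -0.28 (SE 0.053, 95% CI -0.42 to -0.14), with an unadjusted p of 0.00431 and an adjusted p of 0.224 in limma.

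Ser-CGA, which reads UCG, had 14324, 13469 and 15057 RPM in OPCs, 12097 and 13614 RPM in OLs and 13266 and 11343 RPM in astrocytes. The astrocyte libraries lay below the OPC libraries, by little, and one OL library lay among the OPC libraries. The log2 change was -0.15 in OLs (95% CI -0.36 to 0.05) and -0.22 in astrocytes (95% CI -0.47 to 0.03), both against OPCs.

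Ser-GCT, the tRNA for AGU and AGC, had 12299, 10922 and 14785 RPM in OPCs. In OLs it had 14052 and 16068 RPM, and in astrocytes 12102 and 11231 RPM. OLs overlapped OPCs only through OPC replicate 3, and both OL libraries lay above both astrocyte libraries. The log2 change of OLs against OPCs was 0.26 (95% CI -0.15 to 0.66), with an adjusted p of 0.274 in limma. As a share of serine tRNA reads Ser-GCT was 25.3, 23.2 and 28.6% in OPCs, 29.6 and 31.3% in OLs and 27.4 and 27.9% in astrocytes. The OL share was above that of every other library. Its mean exceeded that of OPCs by 4.76 percentage points (exact permutation p = 0.2, adjusted 0.5) and that of astrocytes by 2.85 (exact permutation p = 0.333, adjusted 0.5). Both p-values are the smallest that the group sizes allow.

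Ser-AGA had 94.1, 82.8 and 134 RPM in OPCs, 112 and 117 RPM in OLs and 88.3 and 96.7 RPM in astrocytes. The groups overlapped, except that OLs lay above astrocytes. This pool had the lowest read level of the 4, although most gene copies, 8, were listed under it. Ser-TGA and Ser-CGA had 3 copies each. Whether reads of Ser-AGA were lost or placed in another pool at the mapping step was not tested. Ser-GGA had 78.4, 73.5 and 59.6 RPM in OPCs, 48.4 and 61.1 RPM in OLs and 73.3 and 51.0 RPM in astrocytes, with no group apart from the others.

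**Figure D1:**
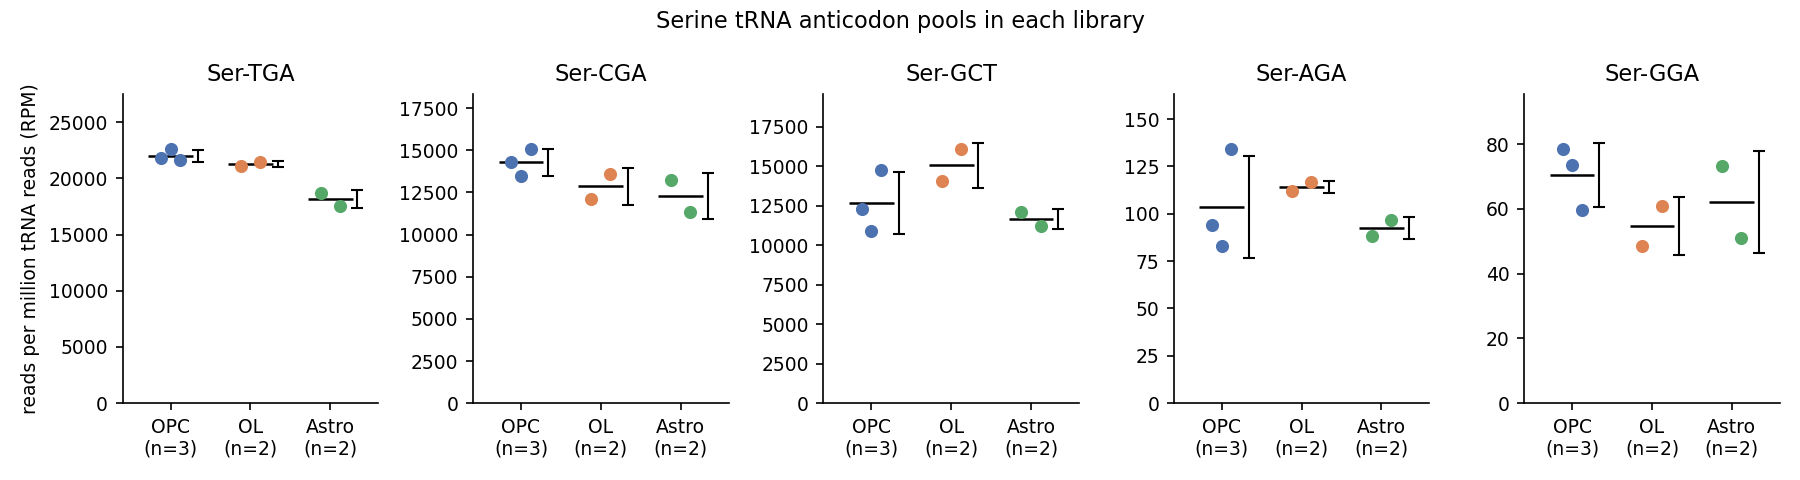
Reads scaled to 1000000 tRNA reads (RPM, y axis from 0, a separate scale in each panel) of the serine anticodon pools in OPCs, OLs and astrocytes (x axis). Points are libraries, lines are group means and bars beside them are ± 1 SD; the astrocyte points of Ser-TGA, at 18700 and 17583 RPM, lie below all others.

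No serine anticodon passed the threshold, an adjusted p under 0.01 in limma, in any comparison. In OLs against OPCs 0 of 4 were called, as were 0 of all 52 (0%). At an unadjusted p under 0.05, 0 of 4 stood beside 13 of 52 (25%), and the libraries did not overlap for 1 of 4 beside 25 of 52 (48.1%). In astrocytes against OPCs 0 of 4 and 0 of 52 (0%) were called. There 1 of 4, Ser-TGA, had an unadjusted p under 0.05 beside 6 of 52 (11.5%), and 2 of 4 did not overlap beside 17 of 52 (32.7%). In OLs against astrocytes, fitted with all 7 libraries, 0 of 4 and 0 of 52 (0%) were called. Again 1 of 4, Ser-TGA, had an unadjusted p under 0.05 (0.00347) beside 8 of 52 (15.4%), and 3 of 4 did not overlap beside 30 of 52 (57.7%). With 4 members these counts are near the background and are not a result about serine pools.

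The 4 pools had log2 changes from -0.15 to 0.26 in OLs against OPCs, with a median of 0.06 beside 0.12 for all 52 anticodons. In astrocytes against OPCs all 4 changes were negative, from -0.28 to -0.11, with a median of -0.18 beside 0.0029, but those of Ser-AGA and Ser-GCT turned positive (0.065 and 0.0084) without OPC replicate 3. Both comparisons share the OPC libraries. In OLs against astrocytes the 4 ranged from 0.07 to 0.37, with a median of 0.27 beside 0.11, and the value of Ser-CGA turned negative with median-of-ratios scaling. That scaling moved the median of all anticodons in this comparison from 0.11 to -0.00029. Relative to the median as deposited, OLs differed from astrocytes by 0.26 for Ser-GCT, 0.20 for Ser-AGA, 0.13 for Ser-TGA and -0.04 for Ser-CGA.

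The leucine pools and SeC-TCA are the other tRNAs with a long variable arm. In OLs against OPCs 0 of the 6 passed the threshold, with log2 changes from -0.21 for Leu-TAA to 0.61 for SeC-TCA and a median of 0.23. Their lowest adjusted p was 0.0402 in limma. The study tested OPCs against OLs with DESeq2 instead. It reports these pools, as Leu-UAA and SeC-UCA, lower and higher in OLs at an adjusted p under 0.01. In astrocytes against OPCs 0 of 6 passed, from -0.28 for Leu-TAA to 0.28 for SeC-TCA, with a median of 0.06. In OLs against astrocytes 0 of 6 passed, from -0.03 for Leu-CAG to 0.34 for SeC-TCA, with a median of 0.17. At an unadjusted p under 0.05 there were 2 higher and 1 lower in OLs against OPCs, 1 lower in astrocytes against OPCs and 1 higher in OLs against astrocytes, beside 13, 6 and 8 of all 52 anticodons.

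The pools most like each serine pool over the 7 libraries were found by the root mean square difference of log2 levels, each centred on its own mean, among 43 pools of other amino acids with at least 100 RPM. Ser-GCT was nearest to Arg-ACG, at 0.047 log2 units, and Thr-TGT, at 0.077. Ser-CGA was nearest to Leu-TAA, at 0.066, and Phe-GAA, at 0.083. Ser-TGA was nearest to Gln-CTG, at 0.075, and Ala-TGC, at 0.076. Ser-AGA was nearest to Thr-TGT, at 0.11, and Leu-AAG, at 0.13. The median distance over all candidates was between 0.18 and 0.23.

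Within each pool a single isodecoder held most reads. Ser-TGA-1 took 97.4% of its pool on average, Ser-CGA-2 91.4%, Ser-GCT-3 80.5% and Ser-AGA-2 68.3%. The first 3 were each listed with 1 gene copy, and Ser-AGA-2 with 6. Ser-TGA-2, with 2 copies, had 533 RPM on average against 20162 RPM for Ser-TGA-1. Ser-GCT-4, with 3 copies, had 130 RPM against 10550 RPM for Ser-GCT-3. The number of listed copies and the read level thus had different orders among serine isodecoders.

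**Figure D2:**
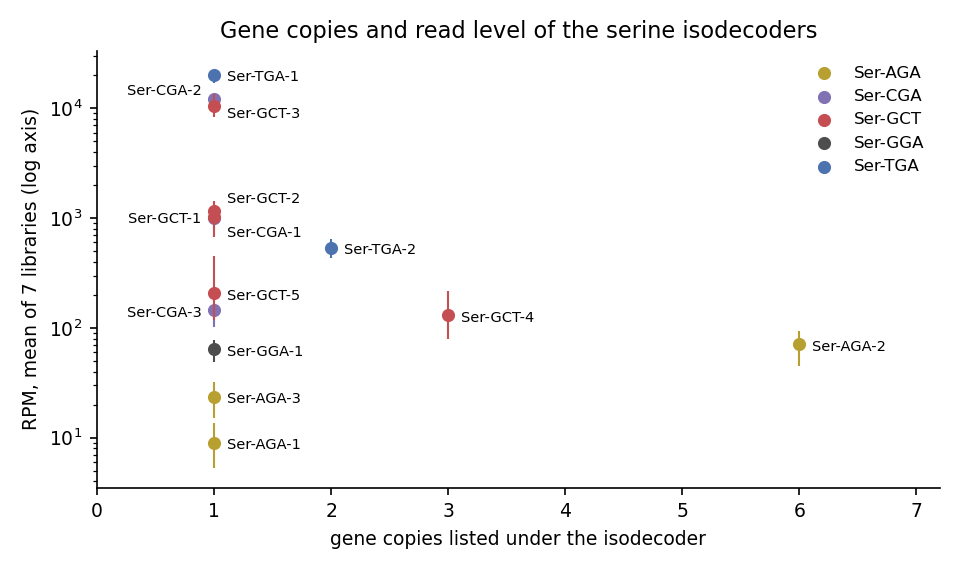
Mean RPM over the 7 libraries (y axis, log scale) of the 14 serine isodecoders against the gene copies listed under each (x axis). Points are means and vertical lines span the lowest to the highest library; Ser-AGA-2, with 6 copies, lies at 70.9 RPM, and Ser-TGA-1, with 1 copy, at 20162 RPM.

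Among the isodecoders 1 passed the threshold, Ser-GCT-5, a minor member of its pool, and only in OLs against astrocytes. Ser-GCT-5 had 165, 161 and 176 RPM in OPCs, 118 and 120 RPM in OLs and 457 and 246 RPM in astrocytes. OLs lay below and astrocytes above every OPC library, and the astrocyte libraries were far apart from each other. The log2 change of OLs against astrocytes was -1.48 (SE 0.27, 95% CI -2.09 to -0.88), with an adjusted p of 0.00588 in limma, so that Ser-GCT-5 was lower in OLs. Without Astro replicate 1 the log2 change was -1.04 with an adjusted p of 0.0397, and the call was also lost without OL replicate 1 (adjusted p 0.0736) or OL replicate 2 (0.0609), each of which leaves 1 library in a group. Against OPCs the log2 change was -0.49 in OLs (adjusted p 0.0806) and 1.00 in astrocytes (adjusted p 0.0559), the latter 0.55 without Astro replicate 1. Without OPC replicate 3 the astrocyte value, 1.04, passed with an adjusted p of 0.000276 in limma.

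As a share of the Ser-GCT pool, Ser-GCT-5 was 1.34, 1.47 and 1.19% in OPCs, 0.841 and 0.748% in OLs and 3.77 and 2.19% in astrocytes. The groups kept the same order with no overlap. The log2 change of the share was -0.74 in OLs against OPCs (adjusted p 0.0321), 1.11 in astrocytes against OPCs (adjusted p 0.127) and -1.85 in OLs against astrocytes (adjusted p 0.0153), none past the threshold in limma. These values rest on about 188 to 1071 reads a library.

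Ser-GCT-1 had 1148, 1344 and 1418 RPM in OPCs. It had 904 and 967 RPM in OLs and 733 and 676 RPM in astrocytes. All OPC libraries lay above the OL libraries, and those above the astrocyte libraries. The log2 change was -0.47 in OLs against OPCs (SE 0.13, adjusted p 0.0455) and -0.88 in astrocytes against OPCs (SE 0.15, 95% CI -1.23 to -0.53, adjusted p 0.0233), in limma, short of 0.01. With all 7 libraries in the fit the astrocyte value had an adjusted p of 0.00513, and without OPC replicate 3 it was -0.82 with an adjusted p of 0.000276. It had an adjusted p of 0.0827 without Astro replicate 1, 0.127 without Astro replicate 2 and 0.085 with no filter on low values. Ser-GCT-1 was 9.33, 12.3 and 9.59% of its pool in OPCs, 6.43 and 6.02% in OLs and 6.06 and 6.02% in astrocytes. The share was thus lower in all 4 differentiated libraries, with log2 changes of -0.73 in OLs (adjusted p 0.0567) and -0.77 in astrocytes (adjusted p 0.0844).

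The main member Ser-GCT-3 had 9768, 8365 and 11818 RPM in OPCs, 11671 and 13440 RPM in OLs and 9717 and 9071 RPM in astrocytes. One OL library lay below OPC replicate 3, and the astrocytes lay among the OPCs. Its log2 change in OLs against OPCs was 0.34 (95% CI 0.0020 to 0.68, adjusted p 0.15), and it was past the threshold without OPC replicate 3 (log2 change 0.47, adjusted p 0.00876). It was 0.22 without OPC replicate 2 (adjusted p 0.283) and 0.24 without OL replicate 2 (adjusted p 0.619). Ser-GCT-2 had 1123, 973 and 1157 RPM in OPCs, 1245 and 1409 RPM in OLs and 1066 and 1093 RPM in astrocytes, with the OL libraries above all others. Its log2 change in OLs against OPCs was 0.29 (adjusted p 0.167). Ser-GCT-4 ranged from 78.8 to 215 RPM, both of these in OPC libraries.

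**Figure D3:**
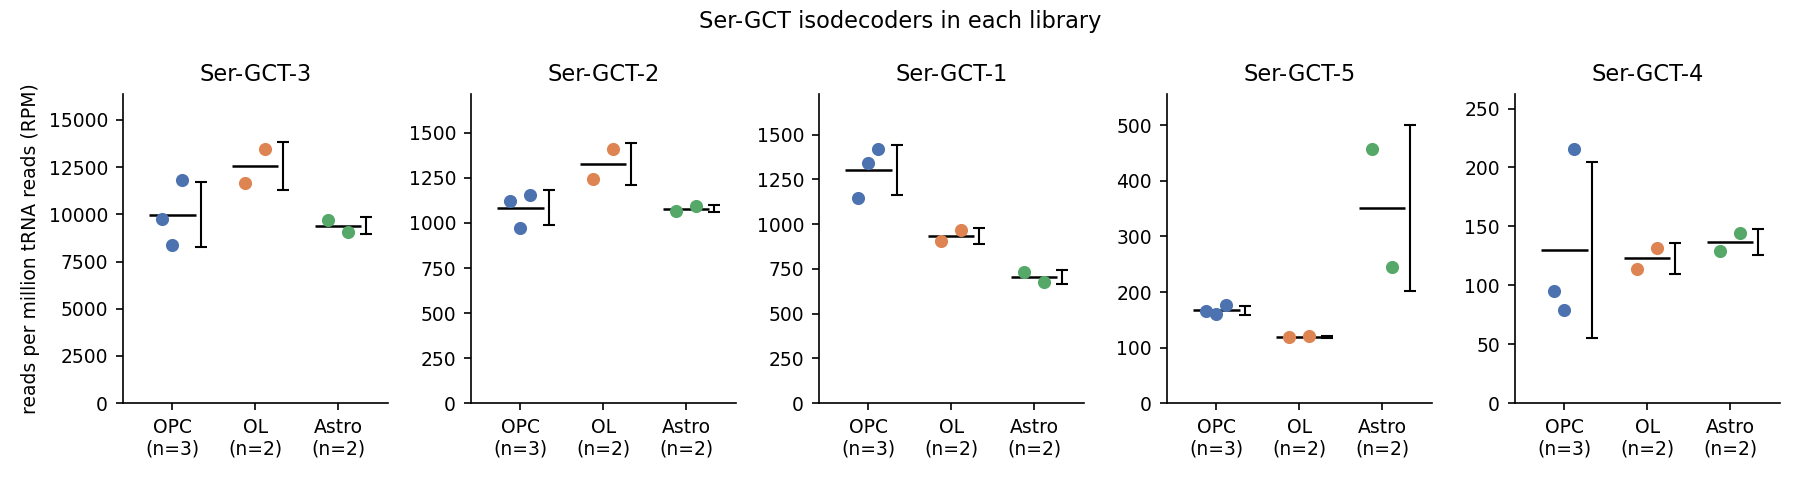
RPM (y axis from 0, a separate scale in each panel) of the 5 Ser-GCT isodecoders in OPCs, OLs and astrocytes (x axis). Points are libraries, lines are means and bars are ± 1 SD; Ser-GCT-1 is highest in OPCs (1148 to 1418 RPM), and Ser-GCT-5 is highest in astrocytes (246 and 457 RPM).

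No isodecoder of the other pools passed the threshold in the main fits. Ser-AGA-1, the serine isodecoder with the lowest mean RPM, had 5.97, 5.30 and 12.3 RPM in OPCs. It had 13.2 and 13.7 RPM in OLs and 5.97 and 6.09 RPM in astrocytes. Both OL libraries lay above all others, OPC replicate 3 came close to them, and the values rest on 8 to 30 reads a library. As a share of its pool it differed between OLs and astrocytes by a log2 change of 0.74 (adjusted p 0.0442 in limma), short of the threshold. Without OPC replicate 3 this share passed in OLs against OPCs and in OLs against astrocytes, as 1 of 13 in each, beside 5 and 8 of all 184 shares. Ser-AGA-2 ranged from 45.0 to 93.7 RPM and Ser-AGA-3 from 15.2 to 32.5 RPM over the 7 libraries.

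Ser-CGA-2 ranged from 10449 to 13810 RPM and Ser-CGA-1 from 793 to 1156 RPM. The OL and astrocyte libraries of Ser-CGA-2 all lay below the OPC libraries, some by little. Its log2 change against OPCs was -0.17 in OLs (adjusted p 0.211 in limma) and -0.21 in astrocytes (adjusted p 0.304 in limma). The rare Ser-CGA-3 had a mean of 163 ± 16.8 RPM in OPCs, 151 ± 1.67 RPM in OLs and 111 ± 13.1 RPM in astrocytes (SD). Its astrocyte libraries lay below the others, with a log2 change against OPCs of -0.55 and an adjusted p of 0.168. Ser-TGA-1 followed its pool, with a log2 change of -0.28 in astrocytes against OPCs (adjusted p 0.131). Ser-TGA-2 ranged from 429 to 648 RPM, with both OL libraries, at 579 and 648 RPM, above all others. Its log2 change in OLs against OPCs was 0.26 (adjusted p 0.201 in limma).

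Across the 14 isodecoders, 0 passed the threshold in OLs against OPCs beside 11 of 192 (5.73%). At an unadjusted p under 0.05 there were 3 beside 63 of 192 (32.8%), and 7 did not overlap beside 102 (53.1%). In astrocytes against OPCs 0 passed beside 0 of 192 (0%), with 4 beside 40 (20.8%) at an unadjusted p under 0.05 and 6 beside 76 (39.6%) without overlap. In OLs against astrocytes 1 passed, Ser-GCT-5, beside 12 of 192 (6.25%), with 5 beside 52 (27.1%) at an unadjusted p under 0.05 and 11 beside 116 (60.4%) without overlap. The serine counts were near these backgrounds.

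For the shares within pools, which 13 serine isodecoders have since Ser-GGA has a single member, 0 of 13 passed in OLs against OPCs beside 4 of 184 (2.17%), 0 in astrocytes against OPCs beside 0 of 184 (0%), and 0 in OLs against astrocytes beside 7 of 184 (3.8%). At an unadjusted p under 0.05 there were 4 of 13 beside 57 of 184 (31%), 3 beside 43 (23.4%) and 3 beside 50 (27.2%), in the same order. The serine shares again did not stand out from those of all isodecoders.

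The log2 changes of the 14 isodecoders against OPCs ranged from -0.49 to 0.79 in OLs, with 7 above 0 and 7 below and a median of -0.0046 beside 0.09 for all 192. In astrocytes they ranged from -0.88 to 1.00, with 3 above 0 and 11 below and a median of -0.20 beside 0.01. In OLs against astrocytes they ranged from -1.48 to 1.04, with 11 above 0 and a median of 0.29 beside 0.11. Signs of values near 0 turned with the scaling for Ser-CGA-1 in OLs against OPCs, Ser-GCT-2 in astrocytes against OPCs and Ser-CGA-2 in OLs against astrocytes.

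**Figure D4:**
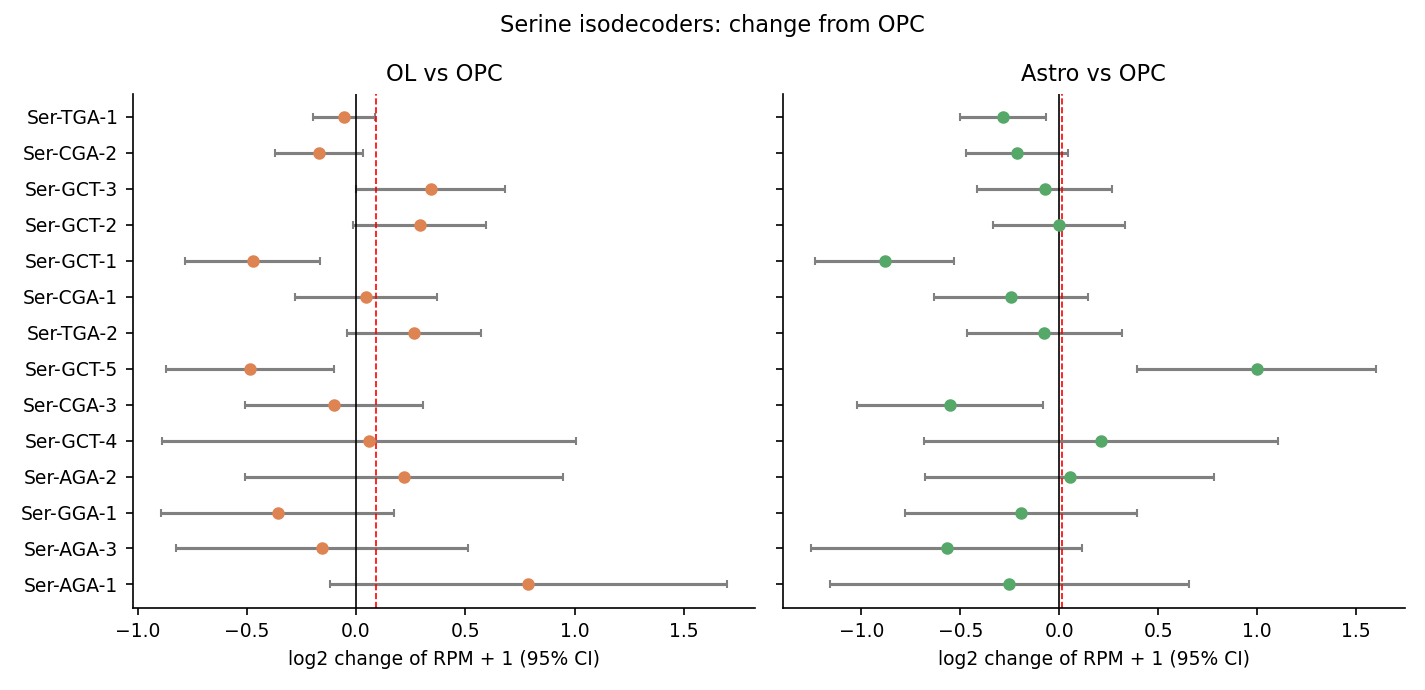
Log2 change of RPM + 1 (x axis) of the 14 serine isodecoders (y axis, ordered by mean level) in OLs and in astrocytes, each against the same 3 OPC libraries. Points are limma estimates, grey bars their 95% CI, the solid line marks 0 and the dashed line the median of all 192 isodecoders; Ser-GCT-1 lies below 0 in both panels, while Ser-GCT-5 lies at -0.49 in OLs and 1.00 in astrocytes.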

How the data were processed

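The 7 mouse libraries were grouped and numbered as the labels give them. Per the study's methods and processing notes, the authors trimmed reads with cutadapt, mapped them with Bowtie2 to mature mm10 tRNAs with identical genes collapsed, and counted them with featureCounts at a minimum mapping quality of 10. They deposited RPM, reads scaled to 1000000 tRNA reads, by isodecoder and summed by anticodon. The authors' DESeq2 tables of OPCs and OLs, which hold fold changes and p-values, were not used.

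Values were tested as log2(RPM + 1), a scale that understates changes of low tRNAs, by two-sided limma 3.58.1 (R 4.3.3) with a variance trend. Isodecoders needed a mean of 1 RPM. Benjamini-Hochberg adjustment covered every tRNA in a fit, and the threshold was 0.01. Each comparison with OPCs used only the libraries of its own groups, and OLs against astrocytes used all 7. Shares were the log2 isodecoder value minus that of its pool, without a trend. For serine totals and the Ser-GCT share, differences of means were put to exact permutation tests in scipy 1.17.1, with the smaller tail doubled. The study calls the replicates biological. The labels do not say so, and p-values then measure the spread between these libraries.

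Read totals came from the step of the low RPM values, whole multiples of 1 read within 0.1 read. They are the totals to which RPM were scaled, and whether all their reads were assigned to a tRNA was not tested. The step was set on 43 to 55 low values a library and then refined on all values. No count test between groups was run. Other serine tRNA sequences are not reported here. Limits from reads cover counting error only. Isodecoders were named if they held 5% of their pool or had an adjusted p under 0.05. Ser-GCT-4, Ser-CGA-3 and Ser-TGA-2 were described after their values were seen. The members and the leucine and selenocysteine list were chosen with earlier results of these data known. Only the isodecoder fit of OLs against OPCs was run on simulated data. Alternatives covered pseudocounts, filters, scalings, the threshold, the variance trend, the libraries fitted, a replicate term and leaving out each library.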

Additional observations from a re-analysis of the deposited data

Results flagged for a closer look

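Ser-GCT-5 was flagged because both OL libraries lay below and both astrocyte libraries above all 3 OPC libraries. Against OPCs the log2 changes, -0.49 in OLs (adjusted p 0.0806 in limma) and 1.00 in astrocytes (adjusted p 0.0559), did not pass. The test of the difference itself gave a log2 change of -1.48 in OLs against astrocytes, with an adjusted p of 0.00588 in limma. Over 17 alternatives this value ranged from -1.93 to -1.04. With all OL and astrocyte libraries kept, the adjusted p ranged from 0.000201 to 0.0407 in limma. The call was lost with the variance trend switched off (adjusted p 0.0346) and with no filter on low values (0.0407). It was also lost without Astro replicate 1, OL replicate 1 or OL replicate 2, each of which leaves 1 library in a group. Leaving out an OPC library could not move this log2 change, and a looser threshold could not undo the call. The share of Ser-GCT-5 in its pool differed the same way, by -1.85, with an adjusted p of 0.0153, which did not pass.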

How the results depend on the processing

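The counts of serine anticodons past the threshold stayed at 0 under every alternative run. The isodecoder counts, 0 in OLs against OPCs, 0 in astrocytes against OPCs and 1 in OLs against astrocytes, changed as follows. Among all 192 isodecoders the counts were 11, 0 and 12. Median-of-ratios scaling gave 1, 2 and 1 (22, 17 and 13 of 192). A threshold of 0.05 gave 1, 1 and 1 (35, 14 and 18 of 192). All 7 libraries in the fit gave 1 in astrocytes against OPCs (10 of 192). In OLs against astrocytes the count was 0 with the variance trend switched off and 0 with no filter on low values. The share counts, all 0, became 1 in OLs against OPCs and 2 in OLs against astrocytes at a threshold of 0.05, and in OLs against astrocytes 1 with a variance trend and 1 with a minimum mean of 100 RPM. With each library left out in turn the isodecoder counts ranged from 0 to 1, 0 to 2 and 0 to 1, and the share counts from 0 to 1, 0 to 0 and 0 to 1. Without OPC replicate 3, 1 isodecoder passed in OLs against OPCs (Ser-GCT-3) and 2 in astrocytes against OPCs (Ser-GCT-1 and Ser-GCT-5), beside 29 and 17 of 192, and the share of Ser-AGA-1 passed in OLs against both other groups. The causes were not tested.

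The labels share replicate numbers, but no source says which OPC culture each OL or astrocyte library came from, so the number was not taken as a pairing. With the replicate block, 1 isodecoder passed in OLs against OPCs (Ser-GCT-3) and 2 in astrocytes against OPCs (Ser-GCT-1 and Ser-GCT-5), beside 45 and 24 of 192. OPC replicate 3 is the only library with its number, so the block takes it out of the estimates. Log2 changes against OPCs with the block therefore equal those without OPC replicate 3 and are no separate check. In astrocytes against OPCs signs turned in this way for Ser-AGA (0.065), Ser-GCT (0.0084), Ser-AGA-1 (0.085), Ser-GCT-2 (0.047) and Ser-GCT-3 (0.055). Deviations of same-numbered OPC and OL libraries correlated at 0.12 and -0.11, and those of OPC and astrocyte libraries at -0.075 and 0.34. Those of OL and astrocyte libraries correlated at -0.29 in both pairs. This is a single value, since deviations within a group of 2 libraries mirror each other. Differently numbered libraries reached 0.39, for OPC replicate 3 and Astro replicate 1.

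The difference of serine totals between OLs and OPCs turned to -1082 RPM when rescaled to the listed tRNAs and to -2929 RPM with median-of-ratios scaling, and ranged from -1701 to 2226 RPM with libraries left out. Median-of-ratios scaling also turned Ser-CGA (-0.045) and Ser-CGA-2 (-0.052) in OLs against astrocytes, Ser-CGA-1 (-0.017) in OLs against OPCs and Ser-GCT-2 (0.030) in astrocytes against OPCs. Rescaling turned Ser-GCT-2 (0.022) in astrocytes against OPCs and Ser-CGA-2 (-0.021) in OLs against astrocytes.

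With libraries left out, signs turned in OLs against OPCs for Ser-AGA-2 (-0.050 to 0.47), Ser-AGA-3 (-0.35 to 0.037) and Ser-CGA-1 (-0.051 to 0.12). They turned in astrocytes against OPCs for Ser-AGA (-0.28 to 0.065), Ser-GCT (-0.21 to 0.0084), Ser-AGA-1 (-0.46 to 0.085), Ser-AGA-2 (-0.21 to 0.31), Ser-GCT-2 (-0.078 to 0.047), Ser-GCT-3 (-0.19 to 0.055) and Ser-GGA-1 (-0.45 to 0.065). They turned in OLs against astrocytes for Ser-CGA (-0.048 to 0.18), Ser-CGA-2 (-0.069 to 0.15) and Ser-GGA-1 (-0.42 to 0.091).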
